A study of Mus musculus with 6 samples.

Results

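NRF2, encoded by Nfe2l2, is a transcription factor that switches on antioxidant genes. At rest KEAP1 holds NRF2 and passes it to a CUL3 ubiquitin ligase for degradation. Oxidants or electrophiles modify KEAP1, and NRF2 then builds up, pairs with small MAF proteins and binds antioxidant response elements (AREs) near its target genes. In liver this pathway is known for controlling glutathione synthesis, thioredoxin-dependent reduction and quinone detoxification. p21, the protein encoded by the gene that the labels give as deleted in 1 of the groups compared here, has been reported to bind NRF2 and to compete with KEAP1 for it, which is given as background only.

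The 10 genes described here are Nfe2l2, its inhibitor Keap1 and 8 targets: Nqo1, Gclc, Gclm, Srxn1, Txnrd1, Slc7a11, Gsr and Prdx1. They were chosen by symbol from the 55573 genes of the deposited table, and each symbol had 1 row. The choice used no measured value of these libraries, although it was made with earlier results of the data known.

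Liver RNA from 2 genotypes of generation 3 mice was sequenced after polyA selection, with 3 libraries in each group. The DKO group is labelled mTR-/- Wrn-/-, for deletions of the RNA template of telomerase and of the Wrn helicase. The p21TKO group is labelled p21-/- mTR-/- Wrn-/-, so the 2 telomerase and helicase deletions are shared by both groups and there is no wild-type group. All mice received normal feed, the sample titles carry the code 2M without explaining it, and neither age nor sex is stated. The study asked which molecular pathways differ in liver once p21 is lost, and the p21TKO mice already had progeroid symptoms. The labels do not say that libraries came from separate animals, so every p-value measures the spread between these libraries.

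The libraries rest on 19363288 to 27061288 reads, the totals by which the FPKM values (fragments per kilobase of exon, scaled to the library total) were divided, and 18271 to 19535 genes were above 0 in each. These totals exceeded the reads in the listed genes unequally, by little in DKO replicate 2 (21516828 against 21481292) and most in p21TKO replicate 3 (27061288 against 22947647) and DKO replicate 1 (24027500 against 20720449). What the further reads were is not known from the sources used here. The liver label was checked on 10 hepatocyte markers such as Alb, none of which was at 0, with summed levels of 38800 to 55400 FPKM. Cdkn1a, the p21 gene, was present in every library at 0.405 to 1.79 FPKM in DKO and 1.41 to 11 FPKM in p21TKO. These values count every Cdkn1a exon and the sources used here do not say which part was deleted, so the deletion is unchecked. Wrn had 36 to 48 reads in every library (0.197 to 0.294 FPKM) and Terc, the mTR gene, had 0 in all, in RNA selected for polyA tails, which Terc RNA lacks, so neither of these deletions is checked either. The groups carry the names of their labels. Y-linked transcripts (Ddx3y, Eif2s3y, Kdm5d and Uty) divided the libraries across the groups. Their sum was 19.19 to 23.3 FPKM in 3 libraries (p21TKO replicate 1 with DKO replicates 2 and 3) and 0 in the remaining 3 (DKO replicate 1 with p21TKO replicates 2 and 3). Xist ran the other way, at 1.79 to 20.9 FPKM in the libraries without Y-linked transcripts and at most 0.00576 FPKM in those with them. Replicates 2 and 3 of p21TKO also stood apart in acute phase genes, with summed levels of 73800 and 52300 FPKM against 9410 to 16500 FPKM in the other 4 libraries. Neutrophil markers summed to 2180 and 688 FPKM in those 2 libraries against 24.6 to 71.0 FPKM. In bulk liver, fewer cells of a type and less RNA per cell cannot be told apart.

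The ARE core, written TGACNNNGC, was searched on both strands in RefSeq promoter windows (GRCm38.p6) of 300 bases, from 250 bases before to 50 after an annotated start. Windows were found for 8 of the 10 genes, 10 windows in all, and 5 genes had a match, in 5 of the 10 windows. Of all 32851 windows, 12.4% held a match. The 10 genes were chosen as members of the NRF2 pathway, so setting these shares side by side is not a test. The 5 stretches are shown because the core is the DNA sequence that NRF2 and small MAF proteins recognise. Each is on the strand of its gene, 5′ to 3′, with the matched core in capitals.
Nfe2l2, chr2:75704880-75704913, minus strand: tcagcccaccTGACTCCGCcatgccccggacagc
Gclm, chr3:122245408-122245446, plus strand: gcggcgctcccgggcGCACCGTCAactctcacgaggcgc
Prdx1, chr4:116685451-116685489, plus strand: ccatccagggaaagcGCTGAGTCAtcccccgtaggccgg
Txnrd1, chr10:82859099-82859137, plus strand: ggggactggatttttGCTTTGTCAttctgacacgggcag
Srxn1, chr2:152105542-152105570, plus strand: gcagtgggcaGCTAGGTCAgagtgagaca
In Nfe2l2 the core reads in the direction of the gene and begins 240 bases before the start. In Gclm, Prdx1 and Txnrd1 it reads on the other strand and begins 134, 133 and 92 bases before the start, in Txnrd1 for 1 of its 3 annotated starts. In Srxn1 it lies 28 bases after the start. Read on its own strand, the Prdx1 core is TGACTCAGC and the Nfe2l2 core is TGACTCCGC. Windows of Keap1, Nqo1 and Slc7a11 held no match, which concerns these letters in these windows only. A match is a description of the sequence and not evidence of binding in these livers.

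None of the 10 genes passed the test between the groups, and Nfe2l2 was the tested member whose FPKM values did not overlap between them. With 9 genes above a mean of 1 FPKM, 0 were called by limma at an adjusted p under 0.05 and 0 had an unadjusted p under 0.05. Across all 9538 genes tested, 0.0734% were called (7 genes, with 0.0315% higher and 0.0419% lower), and 9.38% had an unadjusted p under 0.05. Of the 9 members, 5 had higher and 4 lower values in p21TKO, with a median difference of 0.06 on the log2(FPKM + 1) scale against 0.00 for all tested genes. Groups did not overlap for 1 of the 9 (11.1%) against 15.4% of all tested genes (6.93% higher and 8.49% lower in p21TKO). The limma adjusted p-values of the 9 ran from 0.527 to 0.938, and a p above the threshold does not show that the groups were alike. The 95% intervals of the log2 differences, given with each gene, state how large a difference these libraries leave possible.

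By mean FPKM over the 6 libraries, which allows levels of different genes to be compared per length, Prdx1 was the highest at 264, rank 187 of the tested genes. Gclc (49.8) and Gclm (38.9) followed, then Txnrd1 (19.6), Gsr (16.0), Srxn1 (14.9), Nfe2l2 (10.6), Keap1 (9.28) and Nqo1 (7.37). Prdx1 was above Gclc in every library, and the lowest Gclm value (24.0) was just above the highest Txnrd1 value (23.2). All other neighbours in this order had overlapping ranges. Each tested gene except Nqo1 rested on at least 634 reads in every library, and Nqo1 rested on 59 to 467.

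**Figure D1:**
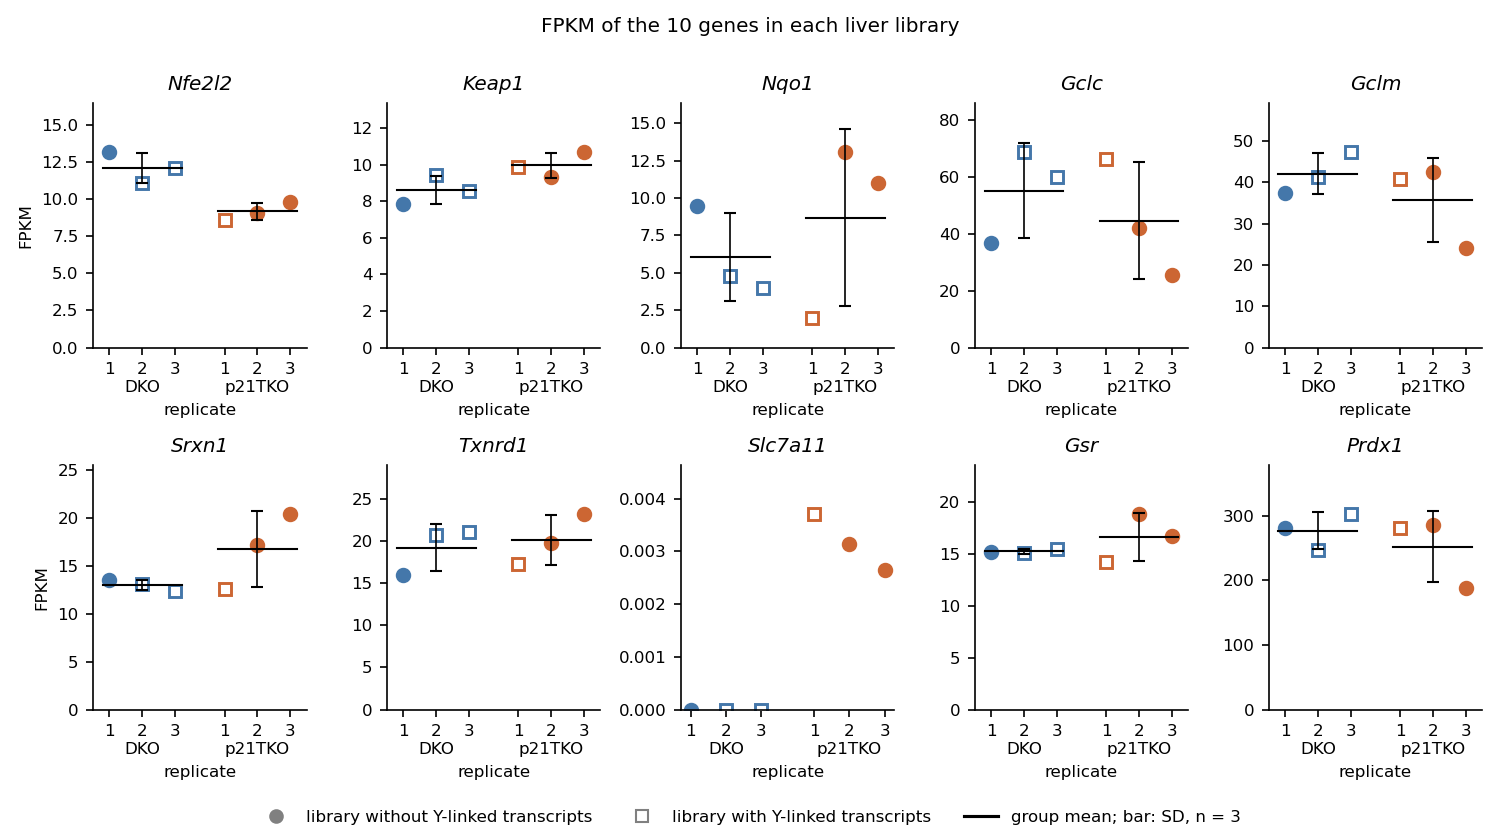
FPKM of each of the 10 genes (y axis, a separate scale from 0 in each panel) in DKO replicates 1 to 3 (blue) and p21TKO replicates 1 to 3 (orange); lines are group means and bars SD (n = 3), left out for Slc7a11, whose points stand for 0 or 1 read. Nfe2l2 is at 11.1 to 13.2 in DKO and 8.63 to 9.81 in p21TKO, while Nqo1 is high and Gclc low in the libraries without Y-linked transcripts (filled circles; open squares are the libraries with them).

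Nfe2l2 (ENSMUSG00000015839, chromosome 2, 75675513 to 75704641, GRCm38) encodes the activator itself. It stood at 13.2, 11.1 and 12.1 FPKM in DKO replicates 1 to 3, and the p21TKO replicates at 8.63, 9.10 and 9.81 FPKM. All 3 p21TKO libraries lay under all 3 DKO libraries, and the highest p21TKO value was 11.5% under the lowest DKO value. The means were 12.1 ± 1.03 and 9.18 ± 0.597 FPKM (SD, n = 3 each), a difference of -24.2% for p21TKO. On the log2(FPKM + 1) scale the difference was -0.36 (SE 0.16, 95% interval -0.75 to 0.02), with a limma unadjusted p of 0.0595 and an adjusted p of 0.527. The exact permutation test over libraries gave a two-sided p of 0.1, the smallest that 3 against 3 allows. Taken separately, the libraries lacking Y-linked transcripts gave -0.44 and those carrying them gave -0.39. Because the groups did not overlap, both signs were fixed in advance, and each set holds 1 library of 1 of the groups. The separation depended on the denominator of FPKM: with each library scaled to the reads in its listed genes, p21TKO replicate 3 (11.6) lay above DKO replicate 2 (11.1).

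Keap1 (ENSMUSG00000003308, chromosome 9, 21229730 to 21239361) encodes the adaptor that targets NRF2 for degradation. Its values were 7.84, 9.42 and 8.57 FPKM in DKO and 9.86, 9.33 and 10.7 FPKM in p21TKO. The groups overlapped, since p21TKO replicate 2 lay just under DKO replicate 2. The log2 difference was 0.19 (SE 0.16, 95% interval -0.19 to 0.57, limma adjusted p = 0.679). With median-ratio scaling the 2 groups no longer overlapped.

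The ratio of Keap1 to Nfe2l2 FPKM within a library, chosen after the values were seen, does not depend on scaling between libraries. It was 0.596, 0.849 and 0.709 in DKO replicates 1 to 3 and 1.14, 1.03 and 1.09 in p21TKO replicates 1 to 3. Nfe2l2 had the higher FPKM in each DKO library and Keap1 in each p21TKO library. Which gene is higher rests on the exon lengths used, since by reads Keap1 was above Nfe2l2 in DKO replicate 2 (951 against 906). Means were 0.718 ± 0.127 and 1.09 ± 0.059 (SD, n = 3 each), a log2 difference of 0.61. Since the ratio joins a member with lower to a member with higher values in p21TKO, it restates the values above. The exact permutation test over libraries gave it a two-sided p of 0.1, the smallest that 3 against 3 allows. Because the ratio was chosen after the values were seen, this p adds no support.

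**Figure D2:**
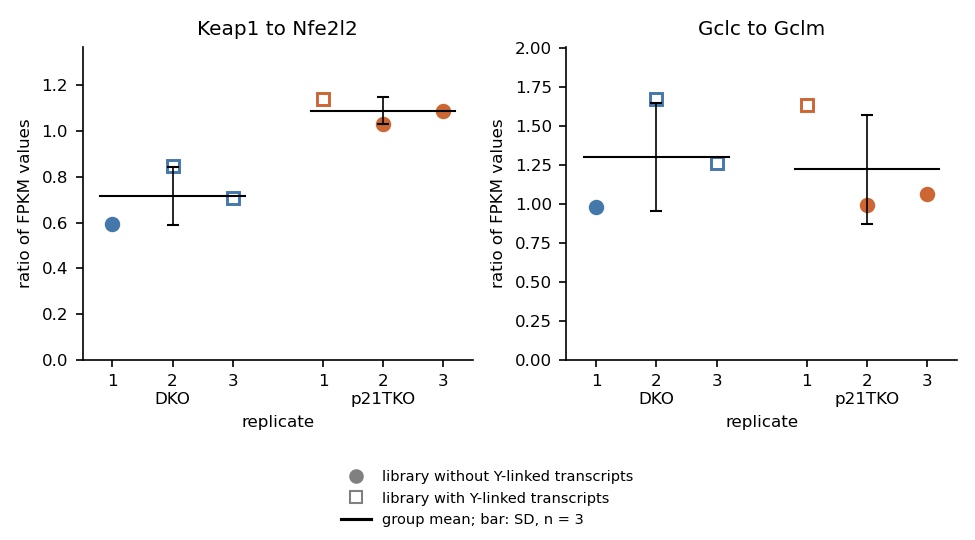
Ratio of FPKM values within each library (y axis, no unit, from 0) for Keap1 to Nfe2l2 (left) and Gclc to Gclm (right) in DKO (blue) and p21TKO (orange) replicates; filled circles lack and open squares carry Y-linked transcripts, lines are group means and bars SD (n = 3). The Keap1 to Nfe2l2 ratio is 0.596 to 0.849 in DKO and 1.03 to 1.14 in p21TKO, whereas the Gclc to Gclm ratio overlaps between the groups.

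Nqo1 (ENSMUSG00000003849, chromosome 8, 107388225 to 107403206) encodes the quinone reductase most often used as a readout of NRF2 activity. It varied more than any other tested member, with a highest value 6.68 times the lowest. DKO replicates 1 to 3 stood at 9.46, 4.76 and 3.97 FPKM and p21TKO replicates 1 to 3 at 1.96, 13.1 and 11 FPKM. The lowest and the highest libraries were both p21TKO, so the groups overlapped widely. The difference was 0.25 on the log2(FPKM + 1) scale (SE 0.62, 95% interval -1.24 to 1.73, limma adjusted p = 0.900), and it was -0.17 without p21TKO replicate 2, -0.05 without p21TKO replicate 3 and 0.96 without p21TKO replicate 1.

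Nqo1 divided the libraries by Y-linked transcripts instead. The 3 libraries without them stood at 9.46 to 13.1 FPKM and the 3 with them at 1.96 to 4.76 FPKM, means of 11.2 ± 1.83 and 3.56 ± 1.44 FPKM (SD, n = 3 each), or 3.14 times. With genotype in the fit, the difference of libraries with minus those without was -1.55 (SE 0.29) and did not pass over all genes (limma unadjusted p = 0.00142, adjusted p = 0.175). Of the tested members, 3 did not overlap between the libraries divided in this way (Nqo1, Gclc and Srxn1), against 17.9% of all tested genes, and 0 were called against 0.419% of all genes. At an unadjusted p under 0.05 there were 2 members, Nqo1 and Gclc, against 10.7% of all genes. The interaction of genotype with Y-linked transcripts called 0 members by limma against 0.136% of all genes, and 1 member, Nqo1, had an unadjusted p under 0.05 against 7.38%. Within DKO alone, replicate 1 was 0.97 above replicates 2 and 3 on the log2 scale, and within p21TKO replicate 1 differed by -2.13 from replicates 2 and 3. Since p21TKO replicates 2 and 3 also stood apart in acute phase genes, the Y-linked division is partly that of those 2 libraries.

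Summed levels of 2 marker lists of non-parenchymal cells took the order of Nqo1 across the 6 libraries. They are given because of that order, while hepatocyte, stellate cell and cholangiocyte markers took other orders. Kupffer cell markers (Clec4f, Vsig4, Marco and 7 others), which mark the resident macrophages of liver, summed to 123, 84.8 and 53.5 FPKM in DKO replicates 1 to 3 and to 40.4, 367 and 203 FPKM in the p21TKO replicates. Endothelial markers summed to 30.1, 20.7 and 18.0 FPKM and to 17.9, 89.8 and 47.2 FPKM. In each list all 10 markers were tested, and for all 10 the log2 difference p21TKO minus DKO was positive. In both lists, however, p21TKO replicate 1 had the lowest summed level of the 6 libraries. Of the 10 markers in each list, 0 were called by limma, 0 had an unadjusted p under 0.05 and 0 were at 0 in every library. Neutrophil markers and acute phase genes were also highest in p21TKO replicates 2 and 3, with another order among the remaining libraries. The part of any of these lists in the Nqo1 values was not tested. Among 8463 other named, non-pseudogene genes tested, those whose centred log2 pattern over the 6 libraries lay closest to Nqo1 included Tmem98, Vsig4, Lss and Mvk. Their root mean square differences from it were 0.164 to 0.213, against 0.796 for the spread of Nqo1 about its own mean. Vsig4 is also 1 of the Kupffer cell markers above. For Nfe2l2 (spread 0.20) the closest were Med1, Slk, Cdkn2aip, Selenoi and Bicral, at 0.048 to 0.064.

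**Figure D3:**
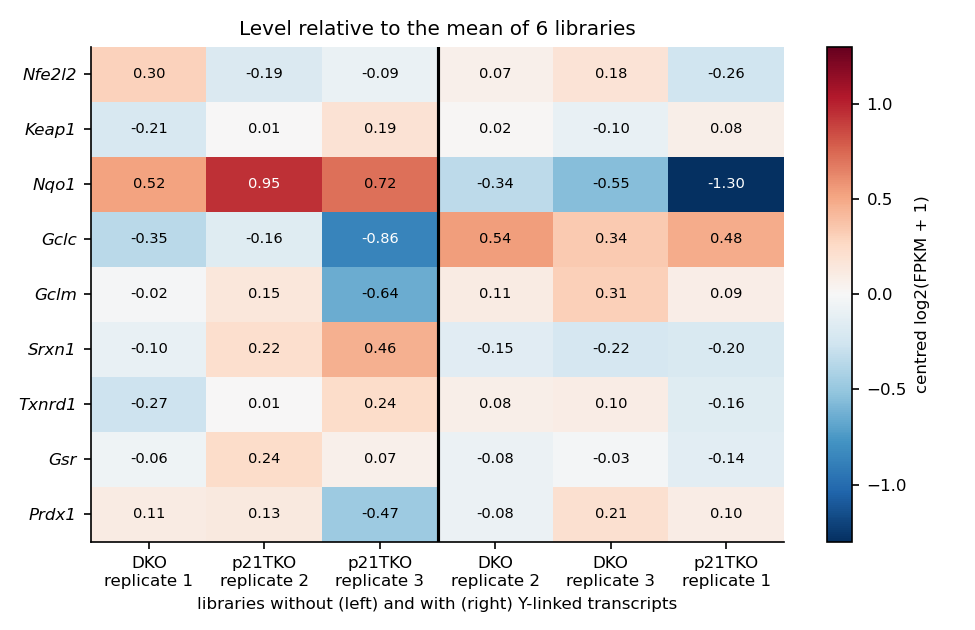
Level of each of the 9 tested genes (rows) in each library (columns) as log2(FPKM + 1) minus its mean over the 6 libraries, with red above and blue below that mean; the black line separates libraries without (left) from those with (right) Y-linked transcripts. Nqo1 is at 0.52 to 0.95 on the left and -1.3 to -0.34 on the right, and Gclc shows the opposite arrangement, at -0.86 to -0.16 and 0.34 to 0.54.

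Glutathione is made in 2 steps, of which the first is catalysed by a heterodimer of GCLC, the catalytic subunit, and GCLM, the modifier subunit. Gclc (ENSMUSG00000032350, chromosome 9, 77754535 to 77794485) stood at 36.7, 68.7 and 59.8 FPKM in DKO replicates 1 to 3, and the p21TKO replicates at 66.2, 42.0 and 25.5 FPKM. The groups overlapped, with a log2 difference of -0.35 (SE 0.41, 95% interval -1.34 to 0.63, limma adjusted p = 0.765). In contrast to Nqo1, Gclc was high in the 3 libraries with Y-linked transcripts, at 64.9 ± 4.59 against 34.7 ± 8.46 FPKM (SD, n = 3 each), a difference of 0.89 (SE 0.29, limma unadjusted p = 0.0191, adjusted p = 0.435). Without p21TKO replicate 1 the genotype difference was -0.69, and without p21TKO replicate 3 it was -0.01.

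Gclm (ENSMUSG00000028124, chromosome 3, 122245557 to 122270732) was less variable, at 37.5, 41.3 and 47.4 FPKM in DKO and 40.7, 42.4 and 24.0 FPKM in p21TKO. The low value was p21TKO replicate 3, and the other 2 p21TKO libraries lay within the DKO range. The log2 difference was -0.27 (SE 0.28, 95% interval -0.94 to 0.40, limma adjusted p = 0.744), and it was -0.01 without p21TKO replicate 3. The ratio of Gclc to Gclm FPKM was 0.977, 1.67 and 1.26 in DKO and 1.63, 0.990 and 1.06 in p21TKO, with overlapping groups; it too was chosen after the values were seen. It was highest in DKO replicate 2 and p21TKO replicate 1, which both carried Y-linked transcripts.

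Gsr (ENSMUSG00000031584, chromosome 8, 33652523 to 33698163) encodes glutathione reductase, which restores reduced glutathione with NADPH. Its DKO values were nearly equal, at 15.2, 15.1 and 15.5 FPKM (coefficient of variation 1.60%), and its p21TKO values of 14.3, 18.9 and 16.8 FPKM lay on both sides of them. The log2 difference was 0.11 (SE 0.18, 95% interval -0.32 to 0.54, limma adjusted p = 0.840). Slc7a11 (ENSMUSG00000027737, chromosome 3, 49892526 to 50443614) encodes the cystine carrier that supplies cysteine for glutathione. It had 0 reads in each DKO library and 1 read in each p21TKO library, all under the limit of 3 reads (0.00796 to 0.0111 FPKM, counting error only). At this depth Slc7a11 was not detectable beyond that limit in either group, and it was not tested.

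The remaining 3 genes act in the thioredoxin and peroxiredoxin cycle. Txnrd1 (ENSMUSG00000020250, chromosome 10, 82833951 to 82897712), the cytosolic thioredoxin reductase, stood at 16.0, 20.7 and 21 FPKM in DKO and 17.3, 19.7 and 23.2 FPKM in p21TKO. The groups overlapped almost fully and the log2 difference was 0.06 (SE 0.21, 95% interval -0.44 to 0.56, limma adjusted p = 0.938).

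Srxn1 (ENSMUSG00000032802, chromosome 2, 152105516 to 152111376) encodes sulfiredoxin, which repairs over-oxidised peroxiredoxins. It stood at 13.5, 13.1 and 12.4 FPKM in DKO and at 12.6, 17.2 and 20.4 FPKM in p21TKO. Of the p21TKO libraries, replicates 2 and 3 lay above every DKO library and replicate 1 lay among them. The log2 difference was 0.31 (SE 0.22, 95% interval -0.21 to 0.83, limma adjusted p = 0.626). It was 0.49 without p21TKO replicate 1 and -0.05 with that library as the only p21TKO library.

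Prdx1 (ENSMUSG00000028691, chromosome 4, 116685544 to 116700822), a peroxiredoxin that removes hydrogen peroxide, stood at 281, 247 and 303 FPKM in DKO and at 281, 286 and 188 FPKM in p21TKO. As for Gclm, p21TKO replicate 3 was the low library and the other 2 lay within the DKO range. The log2 difference was -0.16 (SE 0.29, 95% interval -0.85 to 0.53, limma adjusted p = 0.862). The sources used here do not state whether counting used strand. Genes whose annotated span overlaps a member's had means of at most 0.496 FPKM, and near-identical copies elsewhere were not searched.

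**Figure D4:**
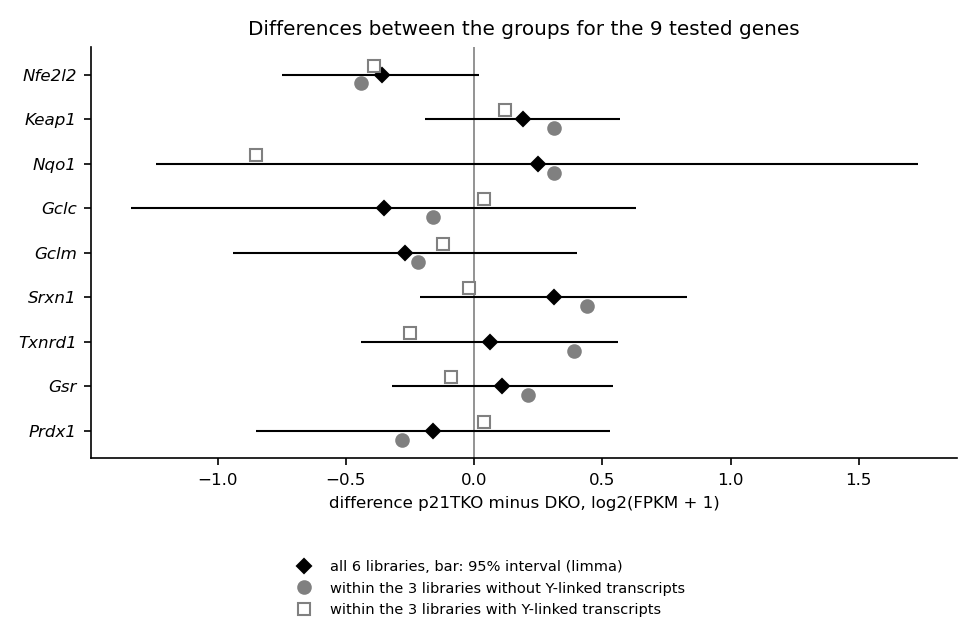
Difference p21TKO minus DKO in log2(FPKM + 1) (x axis) for the 9 tested genes over all 6 libraries (diamonds, with 95% limma intervals), within the 3 libraries without Y-linked transcripts (circles) and within the 3 with them (squares). Every interval includes 0; the 2 within-set values of Nfe2l2 are -0.44 and -0.39, and those of Nqo1 are 0.31 and -0.85.

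Variation between libraries was wider in p21TKO than in DKO for 7 of the 9 members. The median coefficient of variation over the members was 10.3% in DKO and 21.8% in p21TKO, beside 18.1% and 27.8% over all tested genes, so the wider spread was shared by the table as a whole. Nfe2l2 (8.52% and 6.51%) and Keap1 (9.17% and 6.78%) were the 2 members with the narrower spread in p21TKO.

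The other genes of the pathway were read from lists in the same fit, and 0 of their tested genes passed limma's adjusted threshold. Of 17 listed partners and regulators of NRF2 found in the table, 13 were tested, 6 with higher and 7 with lower values (median -0.01), and 0 had an unadjusted p under 0.05. The 3 with the smallest p were Bach1, Mafg and Dpp3. Bach1, a repressor that competes with NRF2 for AREs, stood at 9.36, 13.1 and 10.2 FPKM in DKO and 8.63, 8.09 and 6.87 FPKM in p21TKO (difference of -0.42 in log2, SE 0.19, limma adjusted p = 0.531). Mafg, a small MAF partner, stood at 11.5, 10.3 and 11.6 FPKM and 9.0, 9.87 and 6.62 FPKM (-0.37, SE 0.19, limma adjusted p = 0.559). For both, all p21TKO values lay under all DKO values, as for Nfe2l2. Groups did not overlap for 3 of the 13 genes (23.1%), these 2 and the related factor Nfe2l1, against 15.4% of all tested genes. All 3 had lower values in p21TKO, beside 8.49% of all tested genes that were lower without overlap. Dpp3, a peptidase that binds KEAP1, had means of 5.55 ± 0.964 and 7.0 ± 1.07 FPKM (SD, n = 3 each) with overlapping groups.

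Other NRF2 target genes held 24 lower and 10 higher values among 34 tested of 40, with a median log2 difference of -0.34. None of the 34 was called, 4 (11.8%) had an unadjusted p under 0.05 against 9.38% of all tested genes, and 6 (17.6%) did not overlap between the groups against 15.4%. Taken in either direction, both shares were near those of all tested genes. All 6 genes without overlap and all 4 with a limma unadjusted p under 0.05 had lower values in p21TKO. Of all tested genes, 8.49% were lower without overlap and 6.93% higher. The list median per library, centred on the 6 libraries, was -0.54 in p21TKO replicate 3 and between -0.02 and 0.26 in the others. Ugt1a6a, a glucuronosyltransferase whose exons are partly shared with other Ugt1a genes and whose reads are therefore uncertain, had 1.42 ± 0.328 and 0.591 ± 0.212 FPKM (log2 difference -0.60, limma adjusted p = 0.523). Abcc2, which exports conjugates into bile, stood at 62.7, 48.6 and 69.7 FPKM in DKO and 37.7, 33.4 and 37.5 FPKM in p21TKO (-0.71, SE 0.23, limma adjusted p = 0.523). Its difference was -0.81 where Y-linked transcripts were absent and -0.61 where they were present. Gstm3, a glutathione S-transferase from a family of similar genes among which reads could be divided, had 46.6 ± 6.32 and 21.6 ± 14.4 FPKM (-1.26, SE 0.44, limma adjusted p = 0.523), with -1.95 and -0.18 within those sets. The groups of Abcc2 and of Gstm3 did not overlap, so the signs within the sets were fixed in advance.

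Genes of glutathione synthesis and use had 7 higher and 8 lower values among 15 tested (median -0.01), with 2 (13.3%, Gpx3 and Gss) at an unadjusted p under 0.05 against 9.38% of all tested genes. Gpx3 was the 1 gene of the list without overlap between the groups (6.67% against 15.4%). Gpx3, the plasma glutathione peroxidase, stood at 2.20, 5.82 and 1.81 FPKM in DKO and 6.69, 16.2 and 26.9 FPKM in p21TKO (difference of 1.97 in log2, SE 0.54, limma adjusted p = 0.515). Gss, which catalyses the second step of glutathione synthesis, had 11.5 ± 3.30 and 18.8 ± 4.58 FPKM (0.68, limma adjusted p = 0.523), values that differ in sign from those of Gclc and Gclm. Slc3a2, the chain that pairs with the SLC7A11 carrier, had 8.66 ± 1.12 and 12.7 ± 3.65 FPKM (0.47, limma adjusted p = 0.568), with p21TKO replicates 2 and 3 at 14.9 and 14.7.

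Thioredoxin and peroxiredoxin genes outside the 10 had 3 higher and 10 lower values among 13 tested (median -0.05), with 2 (15.4%, Txnip and Sesn3) at an unadjusted p under 0.05 against 9.38% of all tested genes. Groups did not overlap for 4 of the 13 (30.8%; Txnip, Sesn3, Txnl1 and Txnrd3) against 15.4% of all tested genes. Txnip, an inhibitor of thioredoxin, stood at 25.8, 18.9 and 32.9 FPKM in DKO and 12.6, 13.1 and 16.0 FPKM in p21TKO (difference of -0.82 in log2, SE 0.25, limma adjusted p = 0.523). Sesn3 had 1.43 ± 0.321 and 0.741 ± 0.276 FPKM and Txnl1, a thioredoxin-like gene, 13.2 ± 1.26 and 18.0 ± 1.76 FPKM (limma adjusted p = 0.523 for both). The other peroxiredoxins, Prdx2 to Prdx6, differed by -0.03, -0.03, -0.02, 0.27 and -0.38 in that order. The 7 superoxide and peroxide genes had a median of -0.04, with 0 at an unadjusted p under 0.05. Catalase (Cat) was at 810 to 1060 FPKM in DKO and at 992, 362 and 162 FPKM in p21TKO (-1.31, SE 0.64, limma adjusted p = 0.544). Msra and Msrb1, methionine sulfoxide reductases, differed by -0.53 and -0.22.

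ATF4 is a stress factor that also controls Slc7a11. Its list, Atf4 itself with target genes, had 4 higher and 4 lower values among 8 tested (median 0.00). Of these, 1 (12.5%, Asns) had an unadjusted p under 0.05 against 9.38% of all tested genes. Asns, asparagine synthetase, stood at 2.68, 10.7 and 17.9 FPKM in DKO and 0.189, 2.20 and 4.26 FPKM in p21TKO, with overlapping groups (log2 difference -1.78, SE 0.74, limma adjusted p = 0.523). Ddit4 and Trib3 differed by 0.85 and -0.27 (limma adjusted p = 0.536 and 0.549).

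**Figure D5:**
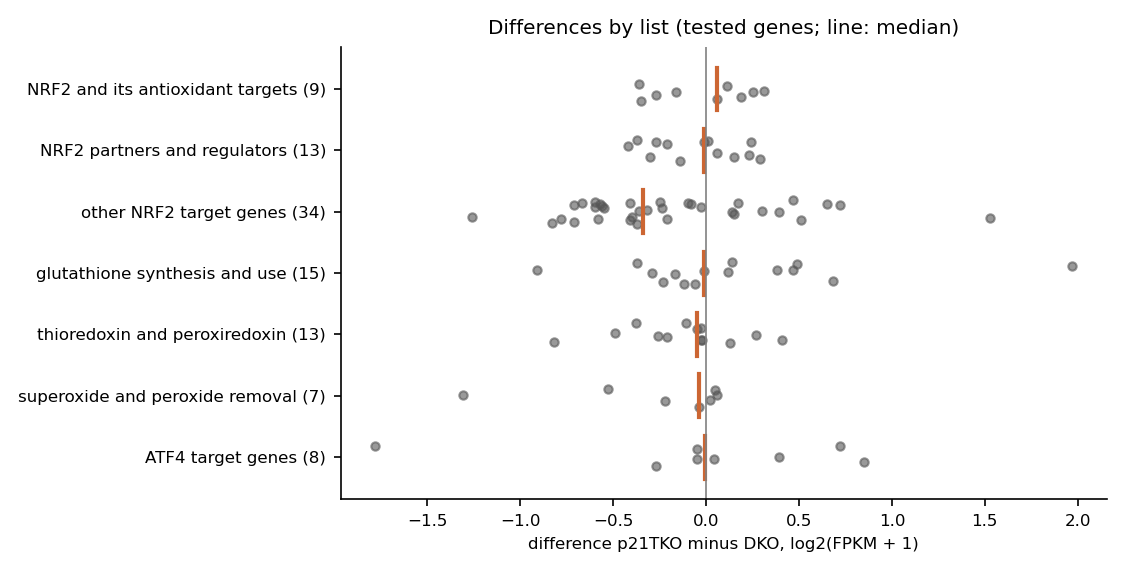
Difference p21TKO minus DKO in log2(FPKM + 1) (x axis) of each tested gene (points) by list, with the number of tested genes in parentheses and the median as an orange line; vertical scatter has no meaning. The median of the 9 members is 0.06 and that of the other NRF2 target genes is -0.34, and no gene shown passed the test.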

How the data were processed

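The deposited table gives 1 FPKM value per gene and library as made by the authors. Tools named in the submitters' processing notes are DESeq2 1.20.0, featureCounts 1.5.0-p3, HISAT2 2.0.5, fastp and CASAVA 1.8. Those notes list human builds although gene identifiers are mouse, which leaves unknown the build used. Coordinates here come from GENCODE M21 (GRCm38), matched by identifier for 55480 genes. FPKM times exon length gave whole reads, within 0.02, for 98.99% to 99.28% of values above 0 per library.

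Genes with a mean of at least 1 FPKM were converted to log2(FPKM + 1) and fitted in R 4.3.3 by limma 3.58.1 (two-sided, with a mean-variance trend), with Benjamini-Hochberg adjustment over all 9538 genes, called under 0.05, after a check on simulated data. Folds on this scale understate changes of low genes. Members and lists were chosen with earlier results of these data known. The text names the members, the 3 genes per pathway list with the smallest p unless any passed, the targeted gene Cdkn1a, and the 5 genes most like Nfe2l2 and like the widest-ranging member, of which 1 is not reported here. Pathway-list genes named beyond this rule are Nfe2l1 and Txnrd3, which did not overlap between the groups, and Prdx2 to Prdx6. Hmox1 and Gstp1 were picked after their values were seen. Python 3.11.15 and matplotlib 3.10.9 were used.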

Additional observations from a re-analysis of the deposited data

Results flagged for a closer look

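For 3 of the 9 tested genes, the p21TKO libraries lay on opposite sides of the DKO libraries in the sets without and with Y-linked transcripts, an arrangement also found in 18.9% of all tested genes. The interaction term of genotype and Y-linked transcripts was -1.17 for Nqo1 (SE 0.41, limma unadjusted p = 0.0274, adjusted p = 0.562), where p21TKO was higher by 0.31 without and differed by -0.85 with Y-linked transcripts. It was -0.65 for Txnrd1 (SE 0.47, limma adjusted p = 0.923), with 0.39 and -0.25, and -0.30 for Gsr (SE 0.45, limma adjusted p = 0.983), with 0.21 and -0.09. None of these interactions passed, and each set holds 1 library of 1 of the groups.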

How the results depend on the processing

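Over 17 alternatives, 1 of them (the total of listed reads) added after the values were seen, no member was called (smallest limma adjusted p 0.151, for Nqo1 without p21TKO replicate 1). Nfe2l2 ranged from -0.44 to -0.31, Keap1 from 0.13 to 0.25 and Gclm from -0.41 to -0.01, each without a change of sign. The FPKM values of Nfe2l2 did not overlap between the groups, so leaving out libraries could not change its sign and adds no support. Of 153 member values, 12 changed sign. With p21TKO replicate 1 as the only p21TKO library these were Nqo1 (-1.18), Gclc (0.31), Srxn1 (-0.05), Txnrd1 (-0.13), Gsr (-0.09) and Prdx1 (0.02). Nqo1 was -0.27 with the division by Y-linked transcripts in the fit, and leaving out 1 library gave it -0.17 to 0.96. Txnrd1 ranged from -0.06 to 0.15 and Prdx1 from -0.26 to 0.04 in the same way. For the median of the members, omitting single libraries gave -0.17 to 0.15. The number of all genes called was 1 with no filter, 4 at a mean of at least 5 FPKM, 1 by voom on recovered reads and 2 with p21TKO replicate 1 alone, and 1 to 495 on omitting single libraries, highest without p21TKO replicate 1. Members without overlap numbered 2 with median-ratio scaling and 0 with the total of listed reads. With the replicate number as a block, 0 genes were called (588 at an unadjusted p under 0.05). Member differences could not move there, since each number holds 1 library of each group. Nor could they move under the changed filters or without the mean-variance trend. The member values under these settings could therefore not change sign. Same-numbered libraries share only a number: their deviations correlated at -0.44, -0.49 and -0.07, and 0 of 6 libraries correlated best with their own number. The causes of these changes were not tested. Genes under about 1 FPKM, such as Slc7a11, are limited by depth.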

Other observations

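Among the other NRF2 target genes, 2 are given here that were picked after their values were seen. Hmox1, which encodes the inducible heme oxygenase, stood at 6.70, 12.7 and 11.3 FPKM in DKO replicates 1 to 3 and at 9.82, 45.9 and 59.6 FPKM in p21TKO replicates 1 to 3 (log2 difference 1.53, SE 0.65, limma adjusted p = 0.523). The high values were those of p21TKO replicates 2 and 3, where acute phase, neutrophil, Kupffer cell and endothelial levels were also highest, and p21TKO replicate 1 lay within the DKO range. Gstp1, a glutathione S-transferase, stood at 2.90, 6.87 and 3.63 FPKM in the 3 libraries without Y-linked transcripts and at 15.1, 21.9 and 23.1 FPKM in the 3 with them. With genotype in the fit this difference was 2.15 (limma adjusted p = 0.0499), so Gstp1 passed narrowly where Gclc, with the same direction, did not. This term called 0.419% of all tested genes. The libraries without Y-linked transcripts include p21TKO replicates 2 and 3, which also stood apart in acute phase genes. Near-identical copies of Gstp1 were not searched.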
